A study of Mus musculus with 8 samples.

Results

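Potassium channel genes are the 90 genes of the table, among 55780 in all, whose symbol is Kcn followed by letters and a number, without Kcnj8 and Kcnj13. They encode the pore-forming subunits of voltage-gated (Kcna to Kcnd, Kcnh, Kcnq), calcium- or sodium-activated (Kcnma, Kcnn, Kcnt), inwardly rectifying (Kcnj) and 2-pore-domain leak channels (Kcnk), with the silent (Kcnf, Kcng, Kcns, Kcnv) and auxiliary subunits (Kcnab, Kcnip, Kcne, Kcnmb) that modify them. All of these pores let potassium leave or enter the cell down its gradient and so pull the membrane towards the potassium equilibrium potential. In neurons, leak and inwardly rectifying channels set the resting potential, voltage-gated channels end action potentials and limit firing rate, and channels gated by calcium or sodium follow the spikes with a hyperpolarization. In astrocytes, Kcnj10 carries the potassium uptake that clears the space around active neurons.

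RNA sequencing was done on 8 libraries of C57BL/6 mouse brain. The Ep1 group held 4 libraries labelled as treated with PDT, at 10 J/cm2 for Ep1 1 and 2 and at 20 J/cm2 for Ep1 3 and 4, and the Ctrl group held 4 libraries labelled untreated. The series title speaks of MNP and its design text of a magnetic force, so what the treatment was is not settled by the labels. The age and number of the mice are not given in the sources used here, and no label ties a library to its own animal. The p-values therefore measure spread among libraries, which may be technical. Values are FPKM, fragments scaled by gene length and by a total for each library. Fragments summed over genes were 15038147 to 17772972 per library, and the totals recovered from the FPKM values were 14858704 to 18320894. The recovered total was below the summed fragments in Ep1 1, 3 and 4, and above them in Ep1 2 and in every Ctrl library. In Ep1 1 it was 16520539 against 16791297, and in Ctrl 1 it was 17330644 against 16833716. The labels give brain as the tissue but also microvessel endothelial cells of the brain. The summed FPKM of 7 neuronal markers was 1245 to 1366 in Ep1 and 1258 to 1383 in Ctrl, and that of 7 endothelial markers was 48.1 to 68.8 in Ep1 and 42.0 to 49.4 in Ctrl, so neuronal transcripts far exceeded endothelial ones in both groups. Ctrl 3 stood apart from the other Ctrl libraries, with 5.08% of its fragments from mitochondrial genes against 3.24% to 3.50% in the other Ctrl libraries and 3.21% to 3.61% in Ep1.

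Of the 90 genes, 68 averaged at least 1 FPKM in either group and were tested as log2(FPKM + 1) with limma, within a fit of 14710 genes. Of these, 65 reached 1 FPKM in both groups, and Kcna5, Kcne2 and Kcnk10 only in Ctrl. At an adjusted p under 0.05, 16 genes rose in Ep1 (23.5% of those tested, against 15.5% of all genes tested) and 14 fell (20.6%, against 10.6%). In total 30 were called (44.1%, against 26.1% of all genes), none of them through a level of 1 FPKM in 1 group only. Without Ctrl 3, 17 rose and 15 fell. Values of the Ep1 and Ctrl libraries did not overlap for 29 of the 68 genes (42.6%, against 31.8% of all genes tested), 16 of them higher (all genes 17.7%) and 13 lower (all genes 14.1%). The median log2 change was 0.07 over the 68 genes and 0.01 over all genes. Called changes were of moderate size, 0.23 to 0.87 on the log2(FPKM + 1) scale in either direction, and 0 of the 68 genes reached a log2 change of 1, which 239 called genes of the whole table did. In tissue RNA, fewer cells of a type and less RNA per cell cannot be told apart.

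Several subfamilies held called genes of both directions; their counts are small and were not tested against the 15.5% higher and 10.6% lower of all genes. The Kv4 (Kcnd) group had 1 gene higher and 1 lower of 3 tested, the sodium-activated Kcnt pair 1 and 1 of 2, and Kcnh 1 higher and 2 lower of 7. Among Kv1 (Kcna) genes 0 rose and 2 fell of 6. Inward rectifiers had 4 higher and 1 lower of 9, and leak channels 3 higher and 1 lower of 9. Of 3 Kcnn genes 1 fell and 0 rose, and Kcnma1 was not called. Among auxiliary and silent subunits the test called 1 of 3 Kcnab, 1 of 4 Kcnip, 1 of 9 silent, 0 of 1 Kcne and 0 of 1 Kcnmb genes, against 26.1% of all genes.

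**Figure D1:**
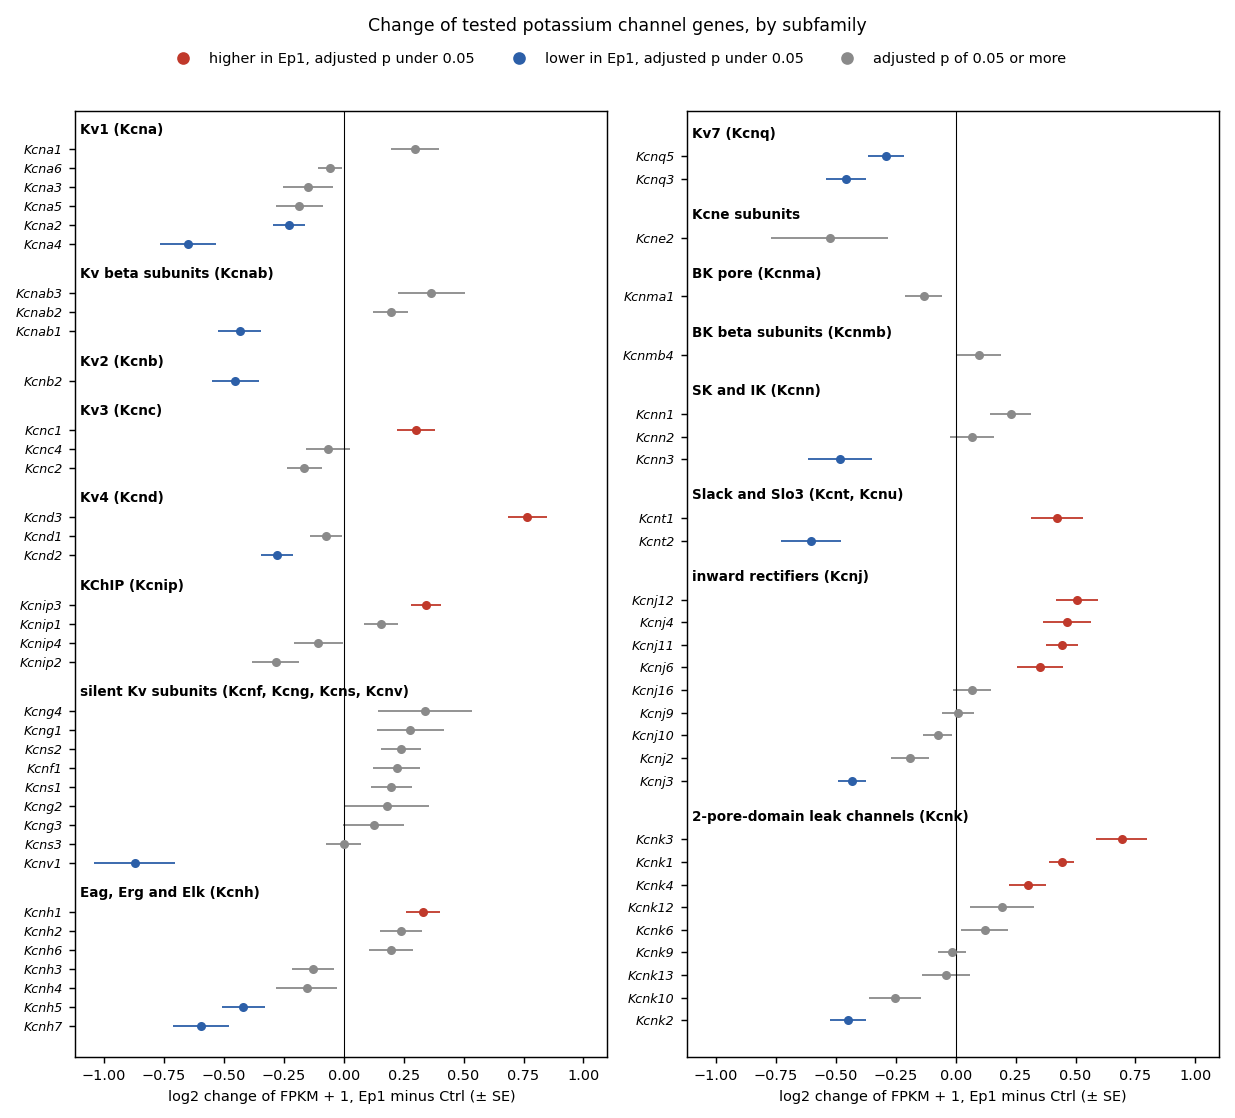
Log2 change of 64 tested potassium channel genes, Ep1 minus Ctrl on log2(FPKM + 1), grouped by subfamily, with 1 point per gene and bars of 1 SE. Colours mark genes called higher and lower, 12 and 14 of those drawn; in Kv4, Kcnh, Kcnt, Kcnj and Kcnk, called genes lie on both sides of 0.

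Values below are in the order of libraries 1 to 4 of each group, so that the last 2 of Ep1 are those at 20 J/cm2. The Kv4 channels carry the fast-inactivating A-type current of dendrites, and their genes split. Kcnd3 had 14.4, 11.9, 11.1 and 12.3 FPKM in Ep1, against 6.62, 6.48, 7.55 and 6.89 FPKM in Ctrl (log2 change 0.77 ± 0.08 SE, adjusted p = 0.000518). All 4 Ep1 libraries lay above all Ctrl libraries, with Ep1 1 the highest, and Kcnd3 had the largest called rise among the 68 genes. In the table Kcnd3 spans chr3:105452330-105674002 on the plus strand and Kcnd2 spans chr6:21215503-21729805 on the plus strand, positions that match GRCm38. Kcnd2, encoding the main A-type subunit of hippocampal dendrites, had 20.4, 19.6, 18.5 and 17.4 FPKM in Ep1, against 24.4, 23.9, 21.5 and 23.2 FPKM in Ctrl (log2 change -0.28 ± 0.06 SE, adjusted p = 0.0139). Every Ep1 library lay below every Ctrl library for Kcnd2, which was called under all alternatives but the removal of GC and length trends (adjusted p = 0.0820). The third member, Kcnd1, averaged 3.02 ± 0.157 FPKM in Ep1 and 3.23 ± 0.217 FPKM in Ctrl (adjusted p = 0.436).

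The KChIP genes (Kcnip) encode calcium-binding subunits that bring Kv4 channels to the surface. Kcnip3, whose product is also known as the transcriptional repressor DREAM, had 30.8, 32.3, 33.9 and 34.2 FPKM in Ep1, against 24.7, 24.1, 25.9 and 27.8 FPKM in Ctrl (log2 change 0.34 ± 0.06 SE, adjusted p = 0.00439), with no overlap. Kcnip2 had 31.5, 31.1, 30.7 and 31.4 FPKM in Ep1, against 41.4, 41.96, 30.2 and 40.7 FPKM in Ctrl and did not pass the test (log2 change -0.28 ± 0.10 SE, adjusted p = 0.0620). Ctrl 3 lay below every Ep1 library for Kcnip2, while the other Ctrl libraries lay above all of Ep1. The gene was called lower in 6 settings with adjusted p 0.000592 to 0.0444, among them the fit without Ctrl 3. Kcnip1 and Kcnip4 were not called (log2 change 0.15 and -0.11, adjusted p = 0.132 and adjusted p = 0.468).

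Stretches of 250 bases upstream of the RefSeq start are shown for 4 genes on the plus strand of GRCm38.p6: the Kv4 pair that moved in opposite directions, and Kcna4 and Kcnj3, which fell. They lie at chr3:105451640-105451889 for Kcnd3, chr6:21215096-21215345 for Kcnd2, chr2:107290339-107290588 for Kcna4 and chr2:55435720-55435969 for Kcnj3. For Kcnd3, Kcnd2 and Kcna4 the RefSeq start lies upstream of the start of the gene in the table (105452330, 21215503 and 107290639). For Kcnj3 the window ends next to the start in the table, 55435970. Capitals mark the GC box GGGCGG or its reverse complement, which Sp-family factors bind.
Kcnd3: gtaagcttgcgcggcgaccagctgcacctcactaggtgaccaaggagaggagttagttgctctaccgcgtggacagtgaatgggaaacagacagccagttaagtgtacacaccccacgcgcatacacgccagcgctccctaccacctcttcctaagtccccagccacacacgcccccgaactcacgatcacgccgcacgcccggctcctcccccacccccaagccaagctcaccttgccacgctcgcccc
Kcnd2: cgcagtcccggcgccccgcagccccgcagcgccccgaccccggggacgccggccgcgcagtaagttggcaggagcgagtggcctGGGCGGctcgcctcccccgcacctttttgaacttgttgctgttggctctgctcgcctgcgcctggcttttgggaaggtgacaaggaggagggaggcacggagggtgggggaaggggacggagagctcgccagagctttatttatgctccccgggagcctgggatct
Kcna4: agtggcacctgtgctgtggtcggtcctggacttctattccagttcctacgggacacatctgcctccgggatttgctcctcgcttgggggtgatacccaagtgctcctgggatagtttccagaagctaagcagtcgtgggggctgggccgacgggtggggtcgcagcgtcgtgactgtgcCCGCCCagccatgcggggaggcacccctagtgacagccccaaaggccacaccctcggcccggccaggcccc
Kcnj3: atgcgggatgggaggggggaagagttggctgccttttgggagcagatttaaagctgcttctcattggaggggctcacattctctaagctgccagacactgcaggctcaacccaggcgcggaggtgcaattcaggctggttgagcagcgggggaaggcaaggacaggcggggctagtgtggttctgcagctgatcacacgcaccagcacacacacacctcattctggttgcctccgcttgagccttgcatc
A GC box was present once in the windows of Kcnd2 and Kcna4 and not in those of Kcnd3 and Kcnj3, so its presence did not divide these genes by direction. RefSeq windows were found for 48 of the 68 tested genes, and a GC box was present in 6 of 9 higher, 6 of 11 lower and 21 of 28 uncalled genes, against 32.7% of 32851 promoters. The Egr motif GCGNGGGCG was present in 3 of the 48 (all promoters 4.70%), the AP-1 motif TGANTCA in 3 (6.75%) and the CRE TGACGTCA in 0 (1.55%), both strands searched. Median GC content of these windows was 62.8% for higher, 62.4% for lower and 63.8% for uncalled genes, against 52.4% for all promoters.

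Kv1 channels repolarize axons and their terminals. Kcna4, the fast-inactivating Kv1 subunit, had 3.03, 3.23, 2.13 and 2.02 FPKM in Ep1, against 4.67, 4.30, 4.97 and 4.46 FPKM in Ctrl (log2 change -0.65 ± 0.12 SE, adjusted p = 0.00434). The Ep1 libraries at 20 J/cm2 were the lowest, and no Ep1 library reached the Ctrl range. Kcna2, an abundant axonal subunit, had 24.4, 27.8, 25.3 and 24.4 FPKM in Ep1, against 28.4, 29.04, 33.02 and 29.5 FPKM in Ctrl (log2 change -0.23 ± 0.07 SE, adjusted p = 0.0347). The groups did not overlap for Kcna2, but its call was lost in 7 settings with adjusted p 0.0602 to 0.0983, among them the fits without Ep1 1, 3 or 4 and without Ctrl 2 or 4. Kcna1, its frequent partner in axons, averaged 22.4 ± 1.75 FPKM in Ep1 and 18.1 ± 2.47 FPKM in Ctrl (SD, n = 4 each) and was not called (adjusted p = 0.0568). Kcna3 and Kcna6 were not called either (adjusted p = 0.305 and adjusted p = 0.431). Kcna5 lay just inside the filter, with 0.656, 0.918, 0.735 and 0.776 FPKM in Ep1, against 0.806, 1.05, 1.17 and 1.04 FPKM in Ctrl (adjusted p = 0.190).

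The Kcnab genes encode the cytoplasmic beta subunits of Kv1 channels. Kcnab1, whose product gives Kv1 channels fast inactivation, had 7.10, 7.95, 6.68 and 5.49 FPKM in Ep1, against 9.69, 9.27, 9.64 and 9.30 FPKM in Ctrl (log2 change -0.43 ± 0.09 SE, adjusted p = 0.00875). All 4 Ep1 libraries were lower than every Ctrl library, as they were for Kcna4. Kcnab2, the most abundant of the 3, had 85.4, 87.2, 87.8 and 82.2 FPKM in Ep1, against 78.97, 78.5, 64.6 and 77.5 FPKM in Ctrl, without overlap but above the threshold (adjusted p = 0.0759). Ctrl 3 was the lowest library there, and without it the gene was called (adjusted p = 0.0443). With GC and length trends removed, the log2 change of Kcnab2 was 0.04 (adjusted p = 0.548), against 0.20 as deposited. Kcnab3 had 41.9, 36.01, 49.8 and 46.4 FPKM in Ep1, against 37.6, 36.2, 25.2 and 36.1 FPKM in Ctrl (adjusted p = 0.0839), again with Ctrl 3 lowest; without Ep1 2 it was called (adjusted p = 0.0447).

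**Figure D2:**
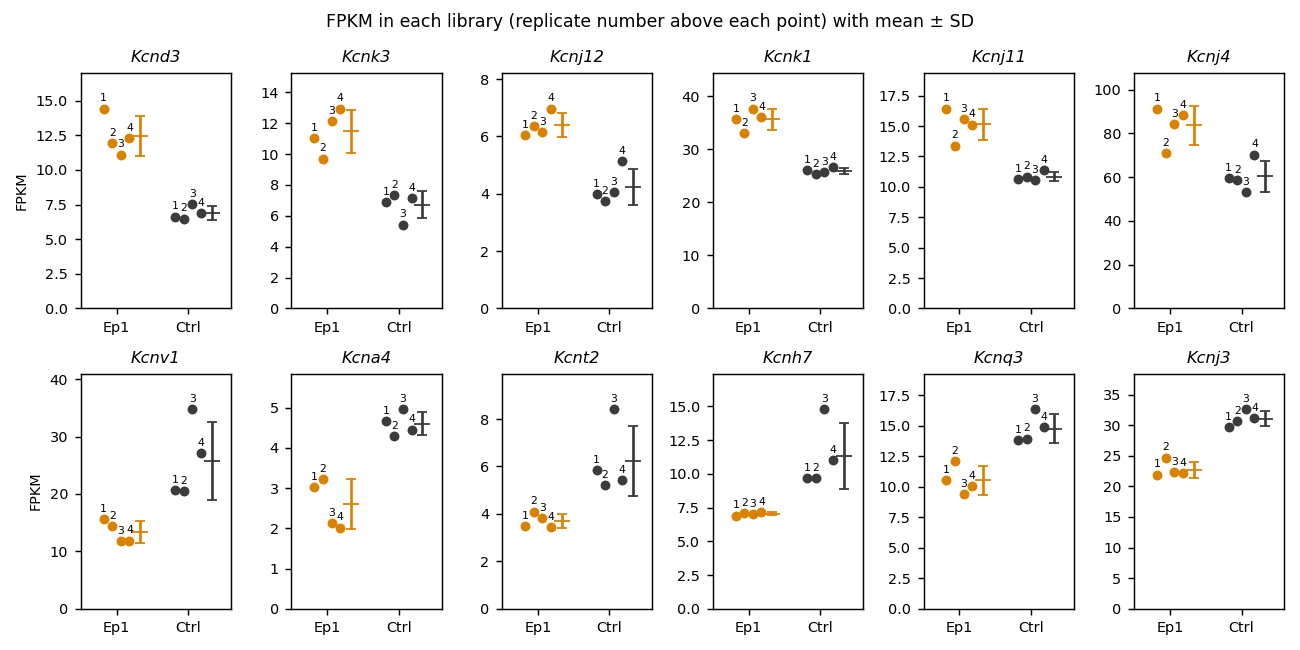
FPKM of 12 called potassium channel genes in each library, 6 higher in the upper row and 6 lower in the lower row, on an axis of its own for each gene; points are libraries with their replicate number, Ep1 left of Ctrl, and bars show the mean and SD (n = 4 each). Kcnd3 lies between 11.1 and 14.4 FPKM in Ep1 and between 6.48 and 7.55 in Ctrl, and Kcnv1 between 11.8 and 15.6 in Ep1 and between 20.5 and 34.8 in Ctrl.

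Kv2 and Kv3 channels carry the delayed-rectifier currents of cell bodies and of fast-spiking neurons. Kcnb2, a Kv2 subunit, had 1.23, 1.47, 1.04 and 0.990 FPKM in Ep1, against 1.80, 1.97, 2.34 and 1.81 FPKM in Ctrl (log2 change -0.45 ± 0.10 SE, adjusted p = 0.0105). The groups did not overlap, with the Ep1 libraries at 20 J/cm2 the lowest.
Kcnc1, the Kv3 channel of fast-spiking interneurons, had 40.2, 35.1, 35.6 and 38.7 FPKM in Ep1, against 32.3, 31.6, 26.002 and 30.8 FPKM in Ctrl (log2 change 0.30 ± 0.08 SE, adjusted p = 0.0221). The groups did not overlap, but the call was lost in 4 settings (adjusted p 0.0536 to 0.0659), among them the fits without Ep1 1 and without Ep1 4. Kcnc2 and Kcnc4, which encode further Kv3 subunits, were not called (adjusted p = 0.122 and adjusted p = 0.614).

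Kv7 channels carry the M-current, a slow voltage-gated current that muscarinic receptors close. Kcnq3, one of its subunits, had 10.5, 12.1, 9.40 and 10.05 FPKM in Ep1, against 13.8, 13.96, 16.4 and 14.9 FPKM in Ctrl (log2 change -0.46 ± 0.08 SE, adjusted p = 0.00471), and spans chr15:65986387-66286642 in the table. All Ep1 libraries lay below all Ctrl libraries. Kcnq5, a further M-current subunit of forebrain, had 14.5, 14.2, 13.5 and 12.5 FPKM in Ep1, against 15.5, 16.1, 18.6 and 17.8 FPKM in Ctrl (log2 change -0.29 ± 0.07 SE, adjusted p = 0.0191), again without overlap. The call of Kcnq5 was lost in 4 settings (adjusted p 0.0515 to 0.0632), among them the fits without Ep1 3, without Ep1 4 and without Ctrl 4.

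The Kcnh genes encode the Eag, Erg and Elk channels, voltage-gated pores with a cyclic-nucleotide-binding-like domain. Kcnh1, an Eag channel, had 24.6, 23.4, 23.4 and 26.3 FPKM in Ep1, against 18.5, 17.8, 19.2 and 21.5 FPKM in Ctrl (log2 change 0.33 ± 0.07 SE, adjusted p = 0.00904). Its paralogue Kcnh5 had 4.28, 4.42, 3.28 and 3.80 FPKM in Ep1, against 5.23, 6.09, 5.16 and 5.89 FPKM in Ctrl (log2 change -0.42 ± 0.09 SE, adjusted p = 0.00938). Kcnh7, an Erg channel of neurons, had 6.90, 7.08, 7.04 and 7.16 FPKM in Ep1, against 9.68, 9.70, 14.8 and 11.04 FPKM in Ctrl (log2 change -0.59 ± 0.12 SE, adjusted p = 0.00639). Ep1 libraries of Kcnh7 lay within a narrow range below all of Ctrl, and Ctrl 3 was the highest. The other Erg genes, Kcnh2 and Kcnh6, were not called (adjusted p = 0.0708 and adjusted p = 0.142), although Kcnh2 did not overlap between groups, with a mean of 12.004 ± 0.759 FPKM in Ep1 and 10.1 ± 1.24 FPKM in Ctrl. Kcnh3, the most abundant of the Kcnh genes, had 34.4, 37.4, 38.2 and 39.95 FPKM in Ep1, against 41.6, 39.7, 35.9 and 47.9 FPKM in Ctrl and was not called (adjusted p = 0.302), and neither was Kcnh4 (adjusted p = 0.398). With GC and length trends removed, Kcnh3 was called lower (adjusted p = 0.00897). The log2 change of Kcnh2 was then 0.03 (adjusted p = 0.684), against 0.24 as deposited.

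Silent subunits form no channel alone and join Kv2 subunits. Kcnv1 had 15.6, 14.3, 11.8 and 11.9 FPKM in Ep1, against 20.7, 20.5, 34.8 and 27.1 FPKM in Ctrl (log2 change -0.87 ± 0.17 SE, adjusted p = 0.00676), the largest called fall among the 68 genes. The Ctrl libraries varied, with Ctrl 3 the highest, and all of them lay above Ep1. The other 8 tested silent subunits were not called, with log2 changes of 0.00 to 0.34 and adjusted p 0.0580 to 0.996; Kcnf1 was the most abundant of them, with 32.8 ± 3.51 FPKM in Ep1 and 28.05 ± 3.20 FPKM in Ctrl.

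Kcnt1 and Kcnt2 encode the sodium-activated channels Slack and Slick, which form heteromers. Kcnt1 had 34.3, 29.9, 40.5 and 42.4 FPKM in Ep1, against 26.6, 25.5, 29.9 and 25.7 FPKM in Ctrl (log2 change 0.42 ± 0.11 SE, adjusted p = 0.0198). Ep1 2 lay just below Ctrl 3, so the groups overlapped, and the call was lost in 6 settings (adjusted p 0.0507 to 0.107), among them the fits without Ep1 3 or 4 and without Ctrl 2 or 4. Kcnt2 had 3.48, 4.10, 3.81 and 3.43 FPKM in Ep1, against 5.86, 5.23, 8.43 and 5.44 FPKM in Ctrl (log2 change -0.60 ± 0.13 SE, adjusted p = 0.00876), with no overlap. Of the calcium-activated genes, Kcnn3, an SK channel of the afterhyperpolarization, had 1.18, 2.16, 1.01 and 1.37 FPKM in Ep1, against 2.50, 2.46, 2.32 and 2.10 FPKM in Ctrl (log2 change -0.48 ± 0.13 SE, adjusted p = 0.0279). Ep1 2 lay within the Ctrl range, and 6 settings lost the call (adjusted p 0.0652 to 0.0752), among them the fits without Ep1 1, 3 or 4 and without Ctrl 1 or 2. The BK pore gene Kcnma1 had 18.2, 16.9, 16.04 and 14.9 FPKM in Ep1, against 17.2, 17.7, 20.4 and 17.4 FPKM in Ctrl (adjusted p = 0.225). Its neuronal beta subunit Kcnmb4 had 3.59, 3.65, 3.66 and 4.62 FPKM in Ep1, against 3.89, 3.27, 3.16 and 3.89 FPKM in Ctrl (adjusted p = 0.447). Kcnn1 and Kcnn2 were not called (adjusted p = 0.0755 and adjusted p = 0.613).

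The Kcnj genes included the most abundant of the called genes. Kcnj4, a strong inward rectifier of forebrain neurons, had 91.4, 71.1, 84.2 and 88.4 FPKM in Ep1, against 59.7, 58.5, 53.3 and 70.3 FPKM in Ctrl (log2 change 0.46 ± 0.10 SE, adjusted p = 0.0104), all Ep1 values above all Ctrl values. Kcnj12, another strong rectifier, had 6.05, 6.37, 6.16 and 6.97 FPKM in Ep1, against 3.99, 3.73, 4.07 and 5.13 FPKM in Ctrl (log2 change 0.50 ± 0.09 SE, adjusted p = 0.00372). Kcnj11, the pore of the ATP-sensitive channel that opens when ATP falls, had 16.4, 13.4, 15.6 and 15.1 FPKM in Ep1, against 10.7, 10.8, 10.5 and 11.4 FPKM in Ctrl (log2 change 0.44 ± 0.07 SE, adjusted p = 0.00211). The groups did not overlap for any of these 3 genes.
Kcnj3, Kcnj6 and Kcnj9 encode the G-protein-gated channels through which inhibitory receptors hyperpolarize neurons. Kcnj3 had 21.9, 24.7, 22.3 and 22.1 FPKM in Ep1, against 29.7, 30.7, 32.7 and 31.1 FPKM in Ctrl (log2 change -0.43 ± 0.06 SE, adjusted p = 0.00119). All Ep1 values lay below all Ctrl values, and Ep1 2 was the highest Ep1 library. Kcnj6 had 6.03, 6.84, 4.97 and 6.07 FPKM in Ep1, against 3.83, 4.40, 4.996 and 4.61 FPKM in Ctrl (log2 change 0.35 ± 0.10 SE, adjusted p = 0.0267); Ep1 3 lay within the Ctrl range, and 7 settings lost the call (adjusted p 0.0540 to 0.0698), among them the fits without Ep1 1, 2 or 4 and without Ctrl 1 or 2. Kcnj9 had 39.4, 39.9, 43.9 and 43.1 FPKM in Ep1, against 42.4, 42.5, 37.2 and 43.3 FPKM in Ctrl (adjusted p = 0.936). The 3 genes of this group thus gave 1 rise, 1 fall and 1 gene that was not called.
Kcnj10, the astrocytic channel of potassium uptake, had 50.4, 54.3, 49.4 and 52.3 FPKM in Ep1, against 58.1, 55.3, 54.3 and 50.1 FPKM in Ctrl (log2 change -0.07 ± 0.06 SE, adjusted p = 0.387). The 2 groups overlapped, and the test did not separate them. Kcnj16, which joins it in astrocytes, averaged 4.64 ± 0.278 FPKM in Ep1 and 4.40 ± 0.514 FPKM in Ctrl (adjusted p = 0.551). Summed over the 13 Kcnj genes, Kcnj4 among them, the level was 224.9 to 242 FPKM in Ep1 and 206 to 224.6 in Ctrl.

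Leak channels of the Kcnk group have 2 pore domains in each subunit and stay open at rest. Kcnk1, the TWIK1 channel, had 35.7, 33.1, 37.7 and 35.98 FPKM in Ep1, against 26.1, 25.3, 25.7 and 26.7 FPKM in Ctrl (log2 change 0.44 ± 0.05 SE, adjusted p = 0.000897). Kcnk3, the acid-sensitive TASK1 channel, had 11.04, 9.71, 12.2 and 12.9 FPKM in Ep1, against 6.89, 7.36, 5.42 and 7.16 FPKM in Ctrl (log2 change 0.69 ± 0.11 SE, adjusted p = 0.00233). Neither gene overlapped between groups, and both were higher in Ep1. Kcnk2 and Kcnk4 encode TREK1 and TRAAK, relatives that stretch and lipids open. Kcnk2 had 8.58, 8.40, 7.11 and 6.93 FPKM in Ep1, against 11.3, 10.8, 11.1 and 10.4 FPKM in Ctrl (log2 change -0.45 ± 0.07 SE, adjusted p = 0.00312), and Kcnk4 had 8.68, 7.45, 9.37 and 9.51 FPKM in Ep1, against 6.68, 6.58, 7.11 and 7.20 FPKM in Ctrl (log2 change 0.30 ± 0.08 SE, adjusted p = 0.0198). The relatives moved in opposite directions, and the call of Kcnk4 was lost in 6 settings (adjusted p 0.0501 to 0.157), among them the fits without Ep1 3 or 4 and without Ctrl 1 or 2. The third relative, Kcnk10, lay just inside the filter with 0.614, 1.02, 0.573 and 0.606 FPKM in Ep1, against 1.03, 1.14, 0.980 and 0.940 FPKM in Ctrl (adjusted p = 0.113); without Ep1 2 and with voom on recovered fragments it was called (adjusted p 0.0219 to 0.0284). Kcnk9, the TASK3 channel, was not called, with 12.9 ± 0.566 FPKM in Ep1 and 13.1 ± 0.724 FPKM in Ctrl (adjusted p = 0.863). Summed over the 14 Kcnk genes, the level was 86.8 to 96.2 FPKM in Ep1 and 76.0 to 80.6 in Ctrl.

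Related genes that moved in opposite directions can be set against each other within a library, which removes any scaling of the whole library. A ratio does not remove a trend with GC content, which was higher for the first gene of each pair below. It was 56.5% for Kcnt1 and 39.3% for Kcnt2, and 52.0% for Kcnh1 and 49.6% for Kcnh5. These pairs were chosen after their values were seen, and their ratios carry no test. The FPKM ratio of Kcnd3 to Kcnd2 was 0.707, 0.609, 0.599 and 0.706 in Ep1, against 0.272, 0.271, 0.352 and 0.297 in Ctrl. All Ep1 libraries lay above all Ctrl libraries. The ratio of Kcnk3 to Kcnk2 averaged 1.504 ± 0.338 in Ep1 and 0.617 ± 0.0931 in Ctrl (SD, n = 4 each), and that of Kcnt1 to Kcnt2 10.0 ± 2.10 in Ep1 and 4.43 ± 0.601 in Ctrl. For Kcnj6 to Kcnj3 it was 0.263 ± 0.0263 in Ep1 and 0.143 ± 0.0104 in Ctrl, and for Kcnh1 to Kcnh5 6.28 ± 0.891 in Ep1 and 3.46 ± 0.368 in Ctrl. None of these 5 ratios overlapped between the groups. For Kcnd3 to Kcnd2, Kcnk3 to Kcnk2 and Kcnh1 to Kcnh5 this could not come out otherwise. In these pairs each gene alone was already without overlap, in opposite directions.

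**Figure D3:**
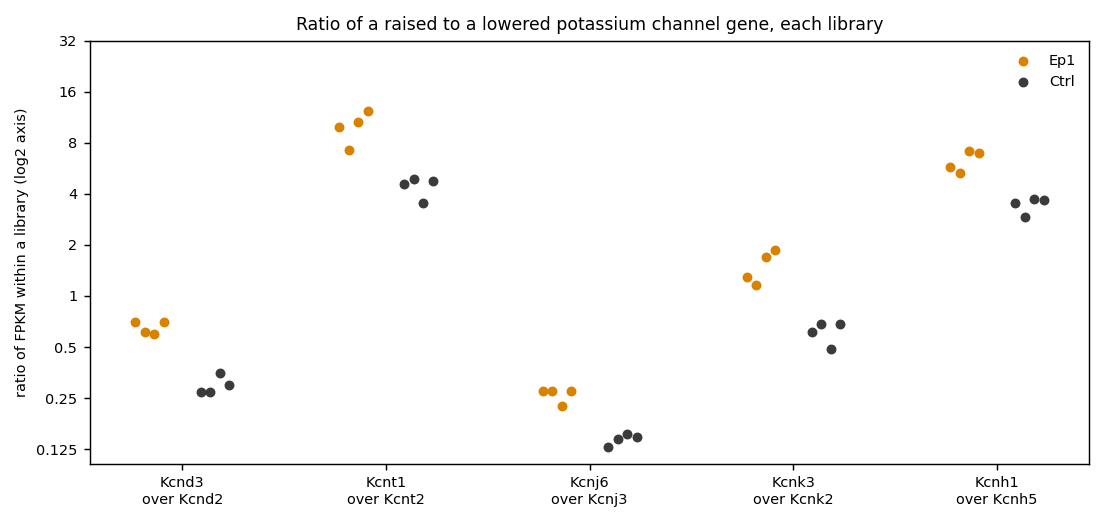
Ratio of FPKM between the 2 genes of a pair within each library, on a log axis; points are libraries, Ep1 left of Ctrl for each pair. For all 5 pairs the Ep1 libraries lie above the Ctrl libraries, and the ratio of Kcnd3 to Kcnd2 is 0.599 to 0.707 in Ep1 and 0.271 to 0.352 in Ctrl. Each pair sets a gene called higher over a gene called lower and was chosen after the values were seen.

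Summed over all 90 genes, potassium channel transcripts stood at 1108 to 1151 FPKM in Ep1 and 1006 to 1088 in Ctrl. The groups stayed apart when libraries were rescaled by median ratios (1103 to 1141 in Ep1 and 1021 to 1081 in Ctrl) or without mitochondrial genes and CT010467.1 (1097 to 1121 in Ep1 and 1038 to 1084 in Ctrl). The same held for the sums of the Kcnj and Kcnk genes. As deposited, the Kcnj sums were barely apart, with 224.93 FPKM the lowest in Ep1 and 224.63 the highest in Ctrl. Kcnj4 alone gave 71.1 to 91.4 FPKM of that sum in Ep1 and 53.3 to 70.3 in Ctrl. The sums of the Kv1, Kv4, KChIP, Kcnh and silent genes overlapped between the groups under each of these scalings. These scalings apply the same factor to all genes of a library and leave a trend with GC content in place. Sums were not computed with that trend removed. Among all genes called, 59.2% were higher as deposited, and 49.1% without mitochondrial genes and CT010467.1, while among potassium channel genes the counts there were 16 higher and 15 lower.

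The annotated transcripts of the called genes differed in base composition. GC content was 50.4% to 62.4% for the 16 higher genes (median 56.5%) and 39.3% to 50.5% for the 14 lower genes (median 45.0%), with 40.3% to 69.4% for the 38 uncalled genes (median 53.7%). Over the whole table the medians were 53.8% for higher, 46.8% for lower and 50.0% for uncalled genes. Across the 68 genes the log2 change and GC content had a Spearman rho of 0.61, against 0.36 across 14496 genes with annotated GC; all points share the same 8 libraries. When the trends of log2 values with GC content and length were removed from each library, 27 of the 30 genes kept their call and direction, and 6 further genes were called, for 15 higher and 18 lower of 68 (all genes called 29.7%). The 3 that lost it were Kcnd2, Kcnt1 and Kcnk4, and the 6 gained were Kcns2, which was higher, and Kcnip2, Kcnh3, Kcna3, Kcnc4 and Kcnj9, which were lower. Median annotated length was 5230 bases for higher, 7336 for lower and 4219.5 for uncalled genes.

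**Figure D4:**
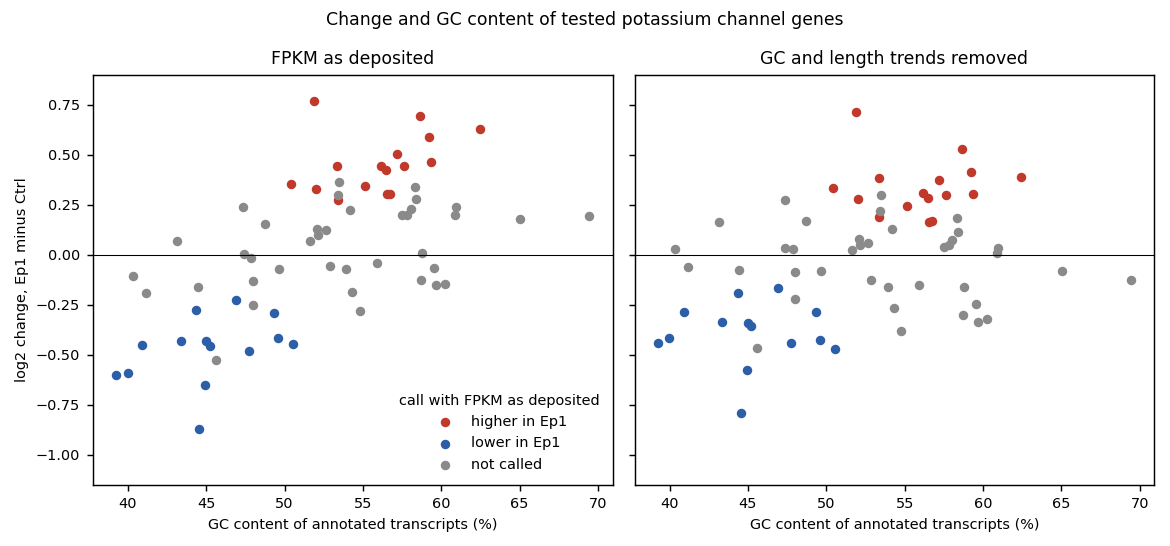
Log2 change of the 68 tested genes, Ep1 minus Ctrl, against the GC content of their annotated transcripts in percent, with FPKM as deposited on the left and with GC and length trends removed on the right; each point is a gene, coloured in both panels by its call with FPKM as deposited. Genes called higher lie at 50.4% to 62.4% GC and genes called lower at 39.3% to 50.5%, and 27 of the 30 called genes are also called on the right.

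Within Ep1, the libraries at 20 and at 10 J/cm2 were compared in a fit with 3 groups. Of the 68 genes 0 were called by limma (all genes 0.0068%) and 0 with voom, and 9 had an unadjusted p under 0.05 (13.2%, against 6.93% of all genes). That count was 18 of 67 without Ctrl 3 (all genes 12.4%) and 5 of 68 without Ep1 2 (all genes 4.201%). The smallest adjusted p was that of Kcna4, 0.430, with a log2 difference of -0.43 for 20 minus 10 J/cm2. Against Ctrl, 9 genes were called higher and 6 lower at 10 J/cm2 (all genes called 10.5%), and 16 higher and 14 lower at 20 J/cm2 (all genes 23.5%). These comparisons share the Ctrl libraries. The 30 genes were called on the mean of both energies, which nearly fixes a shared sign, and all 3841 called genes of the table had one. The change was the larger at 20 J/cm2 for 25 of the 30 genes (83.3%), against 77.1% of all called genes. Ep1 2, 1 of the 2 libraries at 10 J/cm2, was the Ep1 library nearest to the Ctrl mean for 19 of the 30 genes. Over all genes tested, too, Ep1 2 was the Ep1 library closest to each Ctrl library. Its correlations of log2 values with them were 0.9538 to 0.9775, against 0.9356 to 0.9668 for the other Ep1 libraries.

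**Figure D5:**
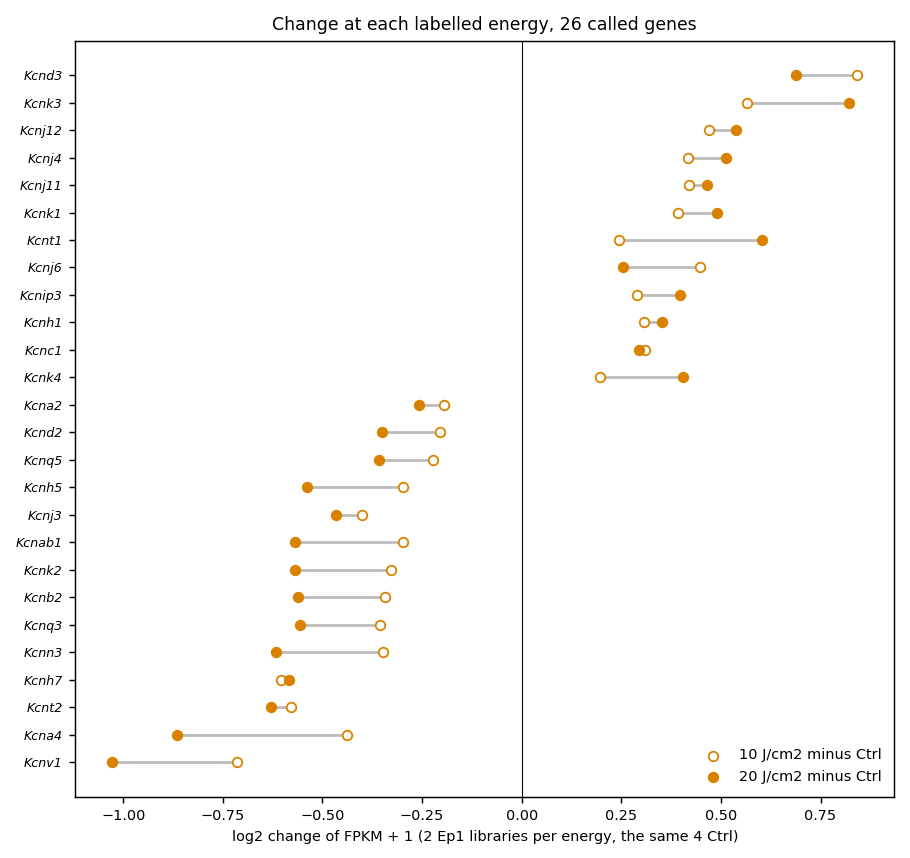
Log2 change against Ctrl of 26 called genes, on log2(FPKM + 1), with 1 gene per line, open points for 10 J/cm2 and filled points for 20 J/cm2 (2 libraries each, against the same 4 Ctrl libraries). The genes were called on the mean of both energies, so a shared sign is no result; 22 of the 26 lie farther from 0 at 20 J/cm2, against 77.1% of all called genes.

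Markers of cell types and of regions also differed between the groups, and their part in the potassium channel results was not tested. Striatal neuron markers fell for 7 of 8 genes, with a summed level of 82.5 to 161 FPKM in Ep1 and 169 to 198 in Ctrl. That sum includes Ppp1r1b, the marker that was not called, which averaged 69.0 FPKM in Ep1 and 63.1 in Ctrl. Microglial markers fell for 5 and rose for 1 of 7, with 86.1 to 96.9 FPKM in Ep1 and 106 to 114 in Ctrl. Astrocyte markers rose for 3 and fell for 0 of 7, with a median log2 change of -0.04. Their sum was 368 to 394 FPKM in Ep1 and 345 to 359 in Ctrl. It includes Gfap, 1 of the 3, which averaged 70.9 FPKM in Ep1 and 31.7 in Ctrl. Aqp4 (11.3 FPKM in Ep1 and 13.4 in Ctrl) and Slc1a2 (195 and 216) were lower in Ep1 without being called. General neuronal markers had 1 higher and 1 lower of 7 and overlapped between groups. Endothelial markers rose for 3 and fell for 3 of 7, pericyte markers fell for 2 of 5 tested, and oligodendrocyte markers fell for 1 of 7. Red cell markers rose for 2 of 3, the globin genes Hbb-bs and Hba-a1, both higher in every Ep1 library than in any Ctrl library. The summed level of the 3 was 76.1 to 253 FPKM in Ep1 and 22.7 to 29.8 in Ctrl (median log2 change 2.41). Alas2 was not called (adjusted p = 0.0626), with 0.535 FPKM in Ep1 2 and 0.605 in Ctrl 3. No marker of these lists was at 0 in every library. Kcne2, an auxiliary subunit abundant in choroid plexus, had 0.993, 1.19, 0.0992 and 0.609 FPKM in Ep1, against 1.86, 2.10, 0.930 and 0.940 FPKM in Ctrl and was not called (adjusted p = 0.140). The choroid plexus marker Ttr had 309, 424, 16.01 and 172 FPKM in Ep1, against 684, 701, 418 and 367 FPKM in Ctrl, and both genes were lowest in Ep1 3. The summed level of the 4 choroid plexus markers was 16.7 to 429 FPKM in Ep1 and 372 to 708 in Ctrl.

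Counting by gene can mix overlapping transcripts, and whether strand was used is not given in the sources used here. Of the 68 tested genes, 13 share more than 5% of their exon bases with another annotated gene, 6 of them called. Among these, Kcnj3 shares 31.1% with Gm26794, Kcnk4 13.1% with Catsperz, Kcnk2 12.2% with A430027H14Rik, Kcnk1 8.01% with Gm45875 and Kcnk3 5.76% with Gm9899. Gm9899 moved the same way as Kcnk3, with 6.24 ± 0.953 FPKM in Ep1 and 4.10 ± 0.405 in Ctrl (SD, n = 4 each, log2 change 0.50, adjusted p = 0.00876). A430027H14Rik moved the same way as Kcnk2 (log2 change -0.34, adjusted p = 0.0488), and Catsperz was not called (adjusted p = 0.201). Gm45875 was under 1 FPKM in both groups and was not tested. It averaged 0.943 ± 0.289 FPKM in Ep1 and 0.431 ± 0.0870 in Ctrl, without overlap and in the same direction as Kcnk1. Values of Gm26794 were not examined. Reads on the shared bases may come from either gene, and how they were assigned is not known.

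Other genes of potassium handling and of excitability were counted from lists, beside 15.5% higher and 10.6% lower among all genes tested. Of 20 tested partner proteins of potassium channels, 1 rose and 4 fell (median log2 change -0.08). Amigo1, a Kv2 partner, rose, with 28.3 ± 1.81 FPKM in Ep1 and 22.7 ± 0.854 FPKM in Ctrl (log2 change 0.30, adjusted p = 0.00676). Adam23, a partner of the LGI1 complex that holds Kv1 channels at synapses and axons, fell, with 8.90 ± 0.459 FPKM in Ep1 and 11.5 ± 0.376 FPKM in Ctrl (log2 change -0.33, adjusted p = 0.00290), as did its relative Adam22, the BK gamma subunit gene Lrrc55 and the GABA-B receptor auxiliary subunit gene Kctd8; the last 2 were named after their values were seen. Of 17 potassium pumps and cotransporters, 1 rose (Slc24a4) and 2 fell, Slc24a2 among them (median -0.02). Of 8 tested voltage-gated sodium channel genes 0 rose and 5 fell (median -0.37). Scn4b, a beta subunit, averaged 22.3 ± 1.92 FPKM in Ep1 and 36.4 ± 4.11 FPKM in Ctrl (log2 change -0.68, adjusted p = 0.00115). Scn2a averaged 19.95 ± 3.11 FPKM in Ep1 and 29.2 ± 1.87 FPKM in Ctrl (log2 change -0.54, adjusted p = 0.00537), and Scn1a averaged 14.8 ± 1.39 FPKM in Ep1 and 19.8 ± 2.22 FPKM in Ctrl (log2 change -0.39, adjusted p = 0.0118). Of 19 tested voltage-gated calcium channel genes 5 rose and 2 fell (median 0.02). The T-type channel gene Cacna1g stood at 29.97 ± 3.26 FPKM in Ep1 and 18.3 ± 1.24 FPKM in Ctrl (log2 change 0.68, adjusted p = 0.000897), and Cacna1h at 17.1 ± 2.18 FPKM in Ep1 and 10.5 ± 1.20 FPKM in Ctrl (log2 change 0.65, adjusted p = 0.00272). Cacng2, whose product accompanies AMPA receptors, stood at 20.3 ± 1.52 FPKM in Ep1 and 14.5 ± 0.663 FPKM in Ctrl (log2 change 0.46, adjusted p = 0.00160). Of the 4 Hcn pacemaker channel genes limma called 0, with 0 at an unadjusted p under 0.05 (median 0.12); Hcn4 averaged 1.20 ± 0.216 FPKM in Ep1 and 0.859 ± 0.272 FPKM in Ctrl (log2 change 0.25, adjusted p = 0.175). Beside these, the median over all genes tested was 0.01. Calls of these lists are from FPKM as deposited and were not examined in the other settings, GC trends included. GC content was 43.2% for Scn1a, 43.5% for Scn2a and 54.5% for Scn4b. It was 58.1% for Cacna1g, 60.3% for Cacna1h and 51.2% for Cacng2.

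The remaining 22 potassium channel genes were under 1 FPKM in both groups and were not tested. Kcnj1 was listed at 0 in all libraries, 11 genes were under 0.1 FPKM in both groups, and 4 reached 0.5 FPKM in a group. Kcnu1 and Kcnmb2 lay just outside the filter: Kcnu1, the sperm channel, had 0.777, 0.844, 0.782 and 0.936 FPKM in Ep1, against 0.818, 0.847, 0.998 and 0.762 FPKM in Ctrl, and Kcnmb2, a BK beta subunit, had 0.716, 0.747, 0.635 and 0.667 FPKM in Ep1, against 0.904, 0.506, 0.950 and 0.967 FPKM in Ctrl. Both overlapped between the groups. Of the 22 genes, Kcnj1 included, 2 did not overlap (9.09%), Kcne3 and Kcnq1, both higher in Ep1. The share was 5.79% among genes under 1 FPKM in both groups and above 0 in a library.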

How the data were processed

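RNA of 8 mouse brain libraries was sequenced, and FPKM values per gene were deposited by the authors in 1 table of 55780 genes, 22561 of them 0 in all libraries. Bowtie 0.12.2 and mm8 appear in the submitters' processing notes with no role given, while gene coordinates in the table match GENCODE M21 on GRCm38 for 99.42% of 55227 identifiers. Counting tool, strand setting and filters are not given in the sources used here. Columns were matched to Ctrl and Ep1 by letter and number, which is an inference, and 0 columns were left unused. FPKM times length gave whole fragments, within 0.01, for 100% of genes.

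Genes averaging 1 FPKM or more in either group (14710) entered limma 3.58.1 (R 4.3.3, trend and robust empirical Bayes) as log2(FPKM + 1), with Benjamini-Hochberg adjustment over all of them at 0.05; this scale understates the change of low genes. A second fit had 3 groups, Ctrl and the 2 energies. The scripts were tested on simulated data with 200 of 14710 genes changed and a dispersion of 0.02. The limma fit recovered 37.31% of 1.5-fold, 83.58% of 2-fold and 95.45% of 4-fold changes. Of its 158 calls 14 were false. A gene that was not called may thus still have changed. Python 3.11.15, pandas 2.3.3, numpy 2.4.6 and matplotlib 3.10.9 were used for tables and plots. Promoters came from RefSeq (GRCm38.p6). Same-numbered libraries of the 2 groups did not deviate together (r -0.05 to 0.06), so numbers were not taken as pairs.

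The genes, lists and alternatives were chosen with earlier results of these data known. Named genes are the called ones, the 10 most abundant, the smallest p of each subfamily, those beside the filter, and 3 of each related list; some genes this takes are not reported here. Alternatives changed pseudocount, filter, scaling, variance model and libraries; GC and length trends were added after seeing the data.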

Additional observations from a re-analysis of the deposited data

Results flagged for a closer look

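Within each group of 4, the highest or lowest library was compared with the rest, by its gap to the nearest library as a share of the group's range, against Dixon's critical value. Of 82 groups of named genes, 8 held a library beyond it, and chance gives about 1 in 20. Ctrl 3 was the library in 5 of them. It was the lowest Ctrl library for Kcnab2 (64.6 FPKM), Kcnab3 (25.2 FPKM), Kcnip2 (30.2 FPKM) and Kcnj9 (37.2 FPKM), and the highest for Kcnma1 (20.4 FPKM). Ep1 2 was the highest Ep1 library for Kcnj3 (24.7 FPKM) and Kcnk10 (1.02 FPKM), and Ep1 4 was the highest for Kcnmb4 (4.62 FPKM). Only Kcnj3 among these 8 genes was called, and its call held in every fit that left out 1 library.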

How the results depend on the processing

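The counts of 16 higher and 14 lower potassium channel genes stayed within 1.5 times under every alternative run. Leaving out 1 library in turn gave 23 to 32 called genes, 12 to 17 higher and 11 to 15 lower, with the fewest without Ep1 4 and the most without Ctrl 3. Of the 30 called genes, 22 kept their call in every setting, and the 8 that lost it in at least 1 setting are those whose lost calls the report gives. With a replicate block the counts were 16 higher and 13 lower; Kcna2, Kcnj6 and Kcnq5 lost their call and Kcna1 and Kcne2 gained one, and since same-numbered libraries did not deviate together, a lost call is not read as a weaker effect. Kcnj9 had a log2 change of -0.16 (adjusted p = 0.0181) once GC and length trends were removed, and of 0.01 as deposited; the cause was not tested. Without a filter on low values 13 rose and 12 fell of 89. Voom on recovered fragments gave 16 and 16, and quantile normalization 15 and 15. Over all genes, 2275 rose and 1566 fell as deposited, against 1954 and 2027 without mitochondrial genes and CT010467.1, 1946 and 1996 with quantile normalization, and 2137 and 2208 with voom. Between the energies 0 of the genes were called by limma or voom in any setting, with 5 (without Ep1 2) to 18 (without Ctrl 3) at an unadjusted p under 0.05. Tested genes had 3 to 14001 fragments in a library and called genes at least 145, so low genes are the less precise.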

Other observations

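Kcne3 and Kcnq1, the 2 genes below the filter that did not overlap between groups, rest on few fragments. Kcne3, which modulates Kv channels, had 0.238, 0.295, 0.197 and 0.265 FPKM in Ep1, against 0.0649, 0.0614, 0.0355 and 0.0667 FPKM in Ctrl. These values rest on 6 to 9 fragments in each Ep1 library and 1 to 2 in each Ctrl library. Kcnq1, best known as a channel of heart and epithelia, had 0.399, 0.357, 0.271 and 0.625 FPKM in Ep1, against 0.127, 0.173, 0.185 and 0.130 FPKM in Ctrl. It rests on 19 to 38 fragments in each Ep1 library and 9 to 13 in each Ctrl library. In the limma fit without a filter, Kcne3 was called (log2 change 0.24, adjusted p = 0.0248) and Kcnq1 was not (adjusted p = 0.0815).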
